A study of Mus musculus with 32 samples.

Results

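NMDA receptors are glutamate-gated cation channels of excitatory synapses, and 154 peaks of N4-acetylcytidine (ac4C), an acetylated cytidine of RNA, were named for 6 of their subunit genes in the mouse hippocampus. The 6 genes were Grin1, Grin2a, Grin2b, Grin2c, Grin2d and Grin3a, and their peaks were taken as the rows of 16 deposited peak lists whose gene symbol was one of these names. All 16 lists together held 148981 peaks under 13143 gene names. In acRIP-seq, RNA is broken into fragments of about 200 nt, fragments that carry ac4C are captured with an antibody, and a peak is a stretch of the genome where captured reads pile up over the unselected input. Each list came from 1 captured library.

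All libraries were made from hippocampus of C57BL6/J mice, and the labels name neither an age nor a sex. The homogenate of the tissue on day 6 gave 3 lists of group C (C1, C2, C3) and 3 of group L (L1, L2, L3). The synapse fraction gave 1 C list and 1 L list on each of days 1, 6 and 20. Peaks of C are called Control in the files, and peaks of L are called Learning. A second set compared a conditional knockout (cKO, 2 lists) with its control (2 lists). Its peak names read AAV-Cont and AAV-cKO, but the labels name neither the deleted gene nor the cells that lost it. Nothing in the labels ties the samples to separate animals, so the p-values speak to differences among these libraries, whose spread may be technical. Day and fraction are partly confounded, since homogenate lists exist for day 6 alone.

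Every working NMDA receptor holds GluN1, the glycine-binding subunit encoded by Grin1. GluN2A to GluN2D, encoded by Grin2a, Grin2b, Grin2c and Grin2d, bind glutamate and set the channel's kinetics, magnesium block and intracellular partners, and GluN3A, encoded by Grin3a, binds glycine and lowers calcium flux. GluN2A and GluN2B are the main GluN2 subunits of adult hippocampal pyramidal cells, where calcium entry through the receptor starts long-term potentiation. GluN2C is best known from cerebellar granule cells and GluN2D from interneurons of the hippocampus. In bulk RNA such as this, fewer cells of a type and less RNA per cell cannot be told apart.

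The lists differed in size and form, and this bears on every number below. Homogenate lists held 15182 to 16971 peaks with median widths of 301 to 445 bp, and synapse lists held 5586 to 7293 peaks with median widths of 188 to 381 bp. The control lists held 4446 and 5132 peaks and the cKO lists 1887 and 422. The synapse L list of day 6 stops partway along its genome order, and all 6 genes lie in the stretch that it covers. Genes past its end have no peak in that list but stay in the shares over all genes given below. Read counts are not part of these lists. The depth behind a peak is therefore unknown, and an absent peak may have lain under the authors' threshold. Of 7 neuronal marker genes, 5 to 7 had a peak in the homogenate lists, 4 to 7 in the synapse lists, 5 and 6 in the control lists and 2 in each cKO list.

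No genome of the files' build was used here, so peaks are described by position, and sequence is shown only where a peak reached an annotated promoter window. RefSeq on GRCm38.p6, which is the mm10 assembly of the files, gives windows from 250 bases before to 50 after a transcript start for Grin1, Grin2c and Grin2d, all on the minus strand. The 3 windows are shown because they tell how far ac4C peaks of homogenate reached over these annotated transcript starts. They read 5′ to 3′, and capitals mark the bases that lay under a peak of the gene in at least 1 list.
Grin2d, chr7:45866632-45866931: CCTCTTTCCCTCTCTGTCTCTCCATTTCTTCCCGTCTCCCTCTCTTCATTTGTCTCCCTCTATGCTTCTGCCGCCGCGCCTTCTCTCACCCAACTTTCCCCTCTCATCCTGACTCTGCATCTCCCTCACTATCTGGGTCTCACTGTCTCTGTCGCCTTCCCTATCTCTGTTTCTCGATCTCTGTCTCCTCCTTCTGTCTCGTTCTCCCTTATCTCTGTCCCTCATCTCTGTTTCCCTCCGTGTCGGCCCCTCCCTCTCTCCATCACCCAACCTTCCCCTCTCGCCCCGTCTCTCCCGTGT
Grin1, chr2:25319138-25319437: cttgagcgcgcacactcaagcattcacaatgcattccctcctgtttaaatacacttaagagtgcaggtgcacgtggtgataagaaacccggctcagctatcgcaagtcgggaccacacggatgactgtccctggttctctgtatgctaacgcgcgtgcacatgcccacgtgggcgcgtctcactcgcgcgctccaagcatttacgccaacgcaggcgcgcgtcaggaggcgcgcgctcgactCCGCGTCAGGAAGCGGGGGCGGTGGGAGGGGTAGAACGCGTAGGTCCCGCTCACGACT
Grin2c, chr11:115267194-115267493: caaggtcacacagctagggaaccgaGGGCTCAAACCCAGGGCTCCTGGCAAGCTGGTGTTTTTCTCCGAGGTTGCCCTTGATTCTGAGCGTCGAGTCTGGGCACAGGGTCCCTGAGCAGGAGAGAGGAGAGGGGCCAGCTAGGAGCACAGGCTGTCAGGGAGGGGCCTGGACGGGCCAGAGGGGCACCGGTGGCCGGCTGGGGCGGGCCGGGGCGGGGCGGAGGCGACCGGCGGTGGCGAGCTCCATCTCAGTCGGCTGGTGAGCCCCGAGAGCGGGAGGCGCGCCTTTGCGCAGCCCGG
All 300 bases of the Grin2d window lay under a peak in all 6 homogenate lists. That window lies inside the Grin2d span, whose 5′ end is at 45871194, so its cover does not describe the end of the span. In the Grin1 window, peaks of 5 homogenate lists, all but L3, reached into the last 58 bases. In the Grin2c window, 275 bases lay under a peak of homogenate C2 or C3. No synapse, control or cKO list had a peak over any of the 3 windows. Over all genes with both a peak and a window, those with a peak over the window made up 46% to 64.2% in the homogenate lists and 21.8% to 31.1% in the synapse lists. The trinucleotide CCG was counted on both strands and stood 7 times in the Grin2d window, 8 times in that of Grin1 and 20 times in that of Grin2c, and 85% of all 32851 windows of this length held it at least once. The GC content of the 3 windows was 56%, 60.7% and 70%, beside a median of 52.7% over all windows. These counts describe the letters in the window and say nothing on which bases were acetylated.

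Grin1, the shared subunit, carried 24 peaks in 13 lists, the 12 C and L lists and the first control list. In homogenate it had 1, 3 and 3 peaks in the C lists and 1, 2 and 1 in the L lists. In synapse it had 1, 3 and 2 peaks in the C lists of days 1, 6 and 20, and 1, 4 and 1 in the L lists. The numbers of C and L overlapped in homogenate and those of the fractions overlapped too. A region at chr2:25318437-25319195, at the 5′ end of the gene span (chr2:25291177-25319187), had a peak in all 13 lists, and the bases 25318685 to 25318928 lay under a peak in each of them. Its widths were 608 to 759 bp in homogenate and 447 to 664 bp in synapse. By the authors' fold enrichment, which here only ranks peaks within a list, it stood at percentile 98 of homogenate L2 with a fold of 77.2, and at percentile 9.26 of the synapse C list of day 1 with a fold of 2.45. A peak at chr2:25316572-25317066 followed in 5 lists of both fractions, and one at chr2:25310217-25310673 in 4. Peaks at chr2:25313359-25313798 stood in the synapse lists of day 6 alone, with folds of 5.08 in C and 18.2 in L.

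The far end of Grin1 had peaks under another name. Grin1os, an antisense transcript of the locus at chr2:25291258-25298660, gave its name to 2 peaks over the Grin1 span in homogenate C2, 3 in C3, 5 in L2 and 2 in L3, and to none in C1, L1 or any synapse list. The widest of them, 1365, 1475, 1162 and 1391 bp, began between 25291156 and 25291224 in those 4 lists. Counted by position under either name, homogenate held 1, 5 and 6 peaks over Grin1 in C and 1, 7 and 3 in L, while the synapse numbers stayed as above. The files give one strand sign for every row, so reads of Grin1 and Grin1os cannot be told apart here.

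**Figure D1:**
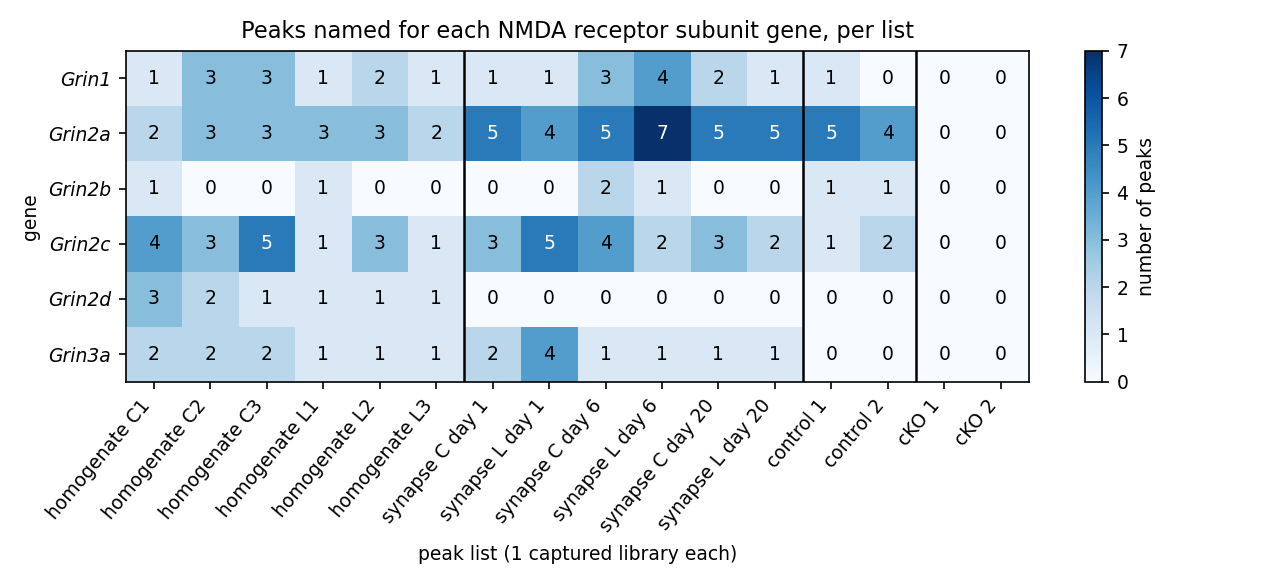
Number of peaks named for each of the 6 genes (rows) in each of the 16 lists (columns), with vertical lines between homogenate, synapse, control and cKO lists. Grin2a has 4 to 7 peaks in synapse lists and 2 or 3 in homogenate lists, Grin2d has peaks in homogenate lists alone, and both cKO lists hold 0 peaks of every gene.

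Grin2a had more peaks in every synapse list than in any homogenate list, though its peaks covered about as many bases in both. This gene, whose GluN2A subunit becomes a main partner of GluN1 as hippocampal synapses mature, carried 56 peaks in 14 lists, all inside its span (chr16:9567901-9996083). Homogenate held 2, 3 and 3 peaks in C and 3, 3 and 2 in L. Synapse held 5 peaks in each of its C lists and 4, 7 and 5 in the L lists of days 1, 6 and 20, so the fractions did not overlap. The means were 2.67 ± 0.516 (SD, n = 6) and 5.17 ± 0.983 (SD, n = 6), a difference of 2.5 (exact two-sided permutation p = 0.00216, adjusted p = 0.0147 by Benjamini-Hochberg over 13115 genes). No smaller p is possible with 924 assignments. Of all genes, 0.107% passed with more peaks in synapse, and 0.0762% (10 genes) had more in every synapse list than in any homogenate list. The other 9 were Abl2, Ache, Gnas, Hrh1, Ly6h, Slc16a14, Sncb, Sspn and Tgfbrap1. Genes past the end of the synapse L list of day 6 cannot be among these 10, though they count in the share. The pattern is thus less rare among genes that all lists cover. With each C list averaged with the L list of its number or day, 3 units against 3 cannot give an exact p under 0.1, and none of these calls can pass.

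The covered bases showed no such gap. Grin2a peaks covered 2216, 2090 and 2181 bases in the homogenate C lists and 2649, 1772 and 2308 in the L lists. They covered 2889, 2194 and 2291 bases in the synapse C lists of days 1, 6 and 20 and 1468, 2362 and 1890 in the L lists, so the ranges overlapped. The mean difference was -20.3 bases (exact two-sided permutation p = 0.935, adjusted p = 1 by Benjamini-Hochberg). Joining peaks within 500 bp left 2 or 3 in homogenate and 3 to 6 in synapse, and the gap then missed the threshold (exact two-sided permutation, adjusted p = 0.0547). It also missed with equal list sizes (adjusted p = 0.0716, the same exact test, chosen after seeing the data) and with only peaks of a -log10 p of at least 10 (adjusted p = 0.0641), where homogenate reached 3 peaks and synapse went down to 3. With only peaks of a fold of at least 5, it was 0.333 peaks (exact two-sided permutation, adjusted p = 1).

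**Figure D2:**
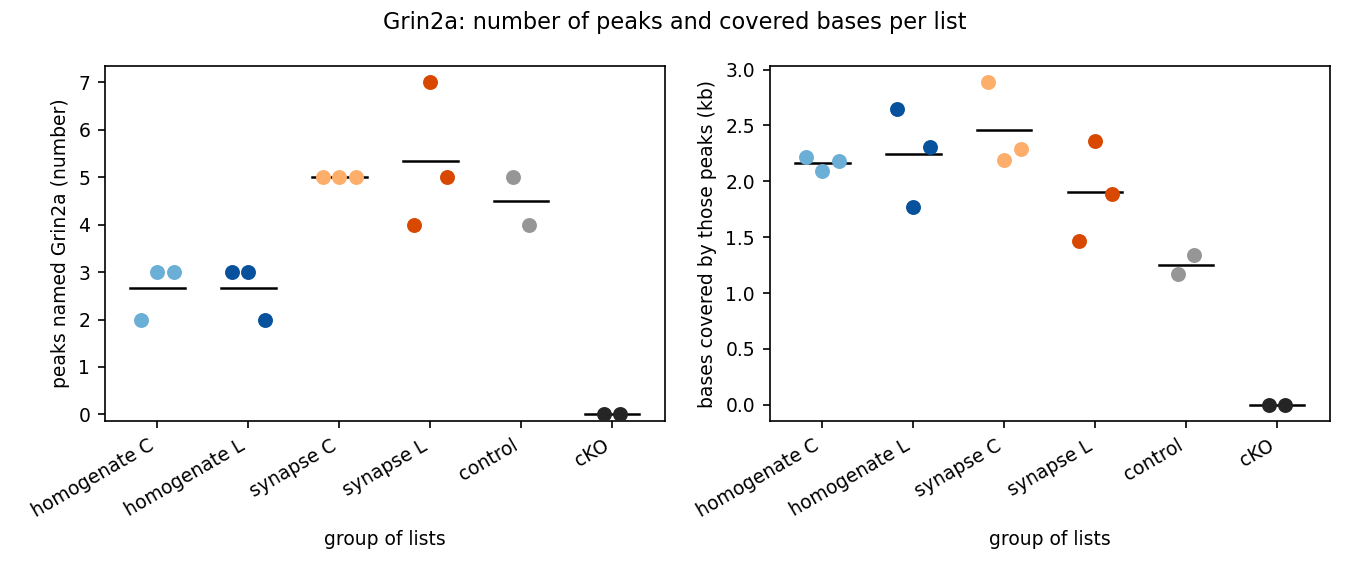
Grin2a peaks per list by group, as a number (left) and as covered kb (right). Points are lists and black lines are group means. The numbers of synapse and homogenate lists do not overlap, at 4 to 7 against 2 or 3, while the covered bases of the fractions share 1 range.

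Both ends of Grin2a took part in this difference in number. A region at the higher-coordinate end, chr16:9993936-9995920, had peaks in all 14 lists. Homogenate C1, L1 and L3 held it as 1 peak of 1918, 1841 and 1754 bp. Homogenate C2, C3 and L2 held it as 2 peaks, synapse lists as 2 or 3, and the bases 9994837 to 9994988 lay under a peak in each of the 14 lists. The highest fold there was 67, at percentile 98.5 of the synapse C list of day 6. A separate region near this end, chr16:9991969-9992677, had a peak in 3 synapse lists, the first control list and no homogenate list. Within 5 kb of this end, homogenate lists held 1 or 2 peaks and synapse lists 2 or 3, which overlapped at 2. The lower-coordinate end differed more in the regions themselves. Within 12 kb of it, a window chosen after the values were seen, homogenate lists held 0, 1 and 1 peaks in C and 0, 1 and 1 in L, while synapse lists held 2, 3 and 2 in C and 2, 4 and 2 in L. Homogenate lists covered 0 to 564 bases there and synapse lists 674 to 1066, so neither measure overlapped. A window so chosen favours such a gap. No test was made on it, and the share of all genes with such a gap was not counted. The 4 homogenate peaks all lay in chr16:9571439-9572024, a region that 5 synapse lists and both control lists shared. Another 4 regions had peaks in synapse lists alone, and the most frequent of them, chr16:9577980-9578731, stood in 4 of the 6 synapse lists with folds of 2.09 to 10.8. A region of chr16:9612450-9612801 went the other way, with peaks in homogenate C1 and L1 and in both control lists and in no synapse list.

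Grin2b, whose GluN2B subunit is the other main partner of GluN1 in the hippocampus, had the fewest peaks, 7 in 6 lists. Homogenate C1 and L1 held 1 peak each, the synapse lists of day 6 held 2 in C and 1 in L, and the control lists held 1 each. All other lists held 0. A region inside the span (chr6:135713221-136173615), at chr6:135922779-135923573, carried 4 of the 7, in homogenate C1 and L1, the synapse L list of day 6 and the second control list. The authors' folds were 2.32 to 5.5, with a median percentile of 14.4 within their lists. So the presence of a Grin2b peak differed between lists of 1 group, and no comparison of Grin2b passed the test. The homogenate lists with a peak, C1 and L1, carry the same number, and homogenate lists of the same number deviated together in gene presence.

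**Figure D3:**
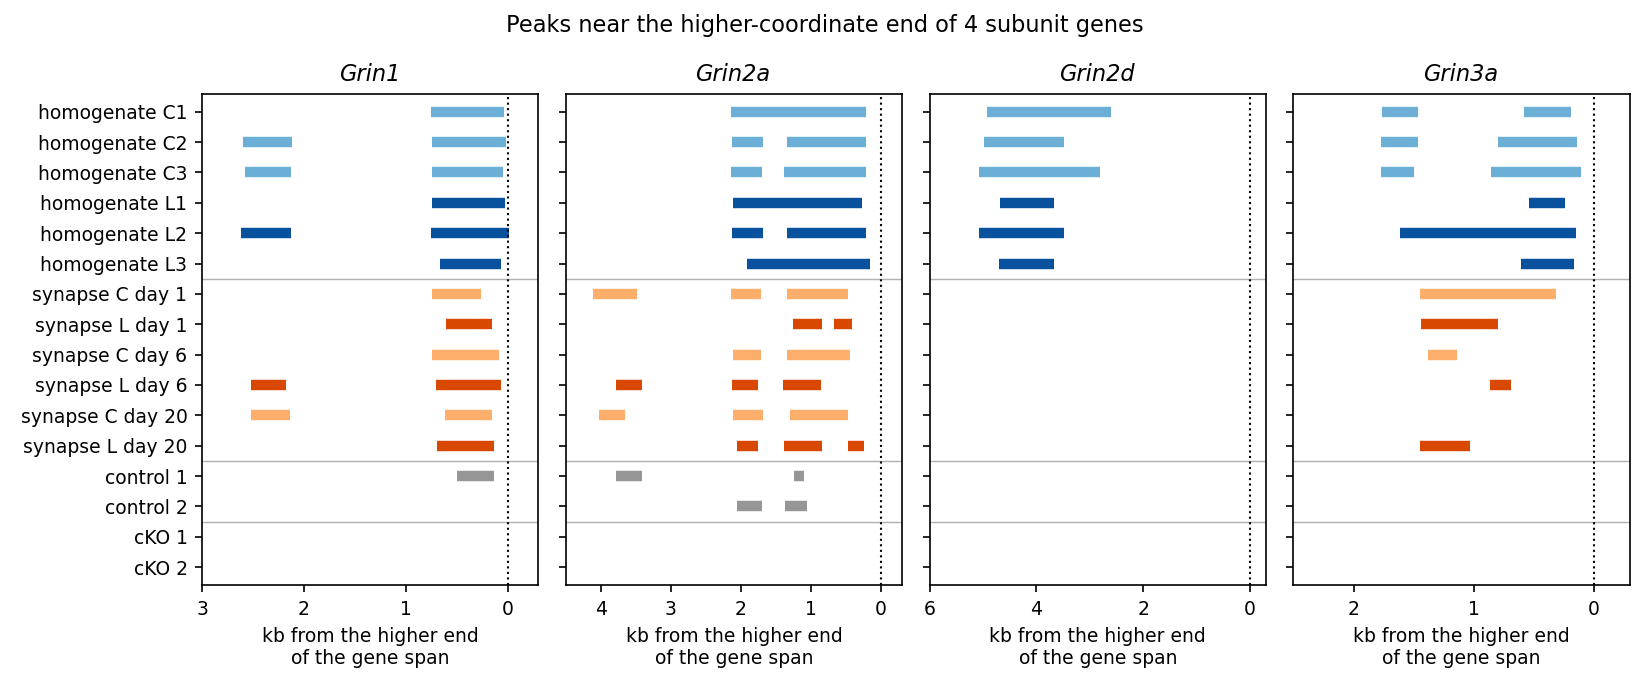
Peaks of Grin1, Grin2a, Grin2d and Grin3a near the higher-coordinate end of each gene span (dotted line), in kb from that end. Each bar is 1 peak, rows are the 16 lists, and colours mark the 6 groups. Grin1 and Grin2a have peaks there in every C and L list, Grin2d in the homogenate lists alone, and the Grin3a peaks of synapse lie farther from the end than most of those of homogenate.

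Grin2d was a gene of homogenate lists. Its 9 peaks stood in all 6 of them, as 3, 2 and 1 in C and 1, 1 and 1 in L, and all 6 synapse lists, the controls and the cKO lists held 0. The mean of 1.5 ± 0.837 (SD, n = 6) against 0 passed the test (exact two-sided permutation p = 0.00216, adjusted p = 0.0147 by Benjamini-Hochberg). This is a common pattern, since 15.3% of all genes passed with fewer peaks in synapse and 14.7% had fewer in every synapse list than in any homogenate list. The covered bases gave the same call, with a mean of 1757 against 0 (exact two-sided permutation, adjusted p = 0.0113). In covered bases, 4528 of 13115 genes passed as lower in synapse, so this call is more common still than that by number. With the 5586 peaks of highest fold of every list, an alternative chosen after seeing the data, the call was lost (difference -0.833, exact two-sided permutation, adjusted p = 0.11).

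Within homogenate, Grin2d peaks covered 2950, 1698 and 2260 bases in C and 1013, 1582 and 1038 in L. These bases did not overlap (exact two-sided permutation p = 0.1, the lowest possible, adjusted p = 1), while the numbers of peaks did. The share of all genes without such overlap in bases was not counted. The main Grin2d region was chr7:45866121-45868600, inside the span (chr7:45831883-45871194), with 1 peak in each homogenate list. The bases 45866513 to 45867524 lay under a peak in all 6, and this stretch holds the whole window printed above. The peak was 2324, 1493 and 2260 bp wide in C1, C2 and C3 and 1013, 1582 and 1038 bp in L1, L2 and L3. Its authors' fold ranked between percentile 60.1 (L1) and percentile 98.4 (L3, fold 163) of its list. Markers of interneurons, where GluN2D is known, had a peak for 1 to 3 of 3 genes in the lists of either fraction. Markers of endothelium had one for 1 or 2 of 3 genes in homogenate and for 0 in synapse. Oligodendrocyte markers had one for 3 or 4 of 4 genes in homogenate and 1 to 3 in synapse. For astrocytes it was 3 or 4 of 4 and 2 to 4, and for microglia 2 or 3 of 3 in both fractions. The part of cell types in the Grin2d result was not tested. Grwd1, a neighbouring gene, gave its name to 1 or 2 further peaks over the Grin2d span in every homogenate list.

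Grin3a, whose subunit makes receptors with little calcium flux, carried 19 peaks in 12 lists. By name it had 2 peaks in each homogenate C list and 1 in each L list, and it was the 1 member whose groups did not overlap in number. By position, L3 had 2 peaks over the span, 1 of them named Ppp3r2, and the groups then overlapped. They also overlapped with folds of at least 5, at 1, 1 and 2 in C against 1 in each L list, and with a -log10 p of at least 10, at 1, 2 and 2 against 1 in each. The difference of -1 gave an exact two-sided permutation p of 0.1, the smallest that 20 assignments can give, and adjusted p = 1 by Benjamini-Hochberg. Of 12908 genes, 0.566% had fewer peaks in every L list than in any C list, and 0.527% had more. In the 3 C lists the second peak lay centred 1.61 to 1.63 kb from the higher-coordinate end, 275 to 310 bp wide. In L2 a single peak of 1472 bp, from 49844406 to 49845877, overlapped that place, so only L1 and L3 had no base covered there. The covered bases were 690, 968 and 1026 in C and 298, 1472 and 441 in L, and these ranges overlapped (exact two-sided permutation p = 0.8). The region, chr4:49844253-49845919, had peaks in all homogenate lists and in 5 of 6 synapse lists. On days 1, 6 and 20, synapse lists held 2, 1 and 1 Grin3a peaks for C beside 4, 1 and 1 for L, so the L list of day 1 was the highest of all lists. A region at chr4:49770549-49771475, deep inside the span (chr4:49661611-49846023), stood in 3 synapse lists and in none of homogenate.

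Grin2c had a lower mean number of peaks and lower covered bases in homogenate L lists, neither past the adjusted threshold, and part of its peaks lay outside the gene. It held 4, 3 and 5 peaks in the homogenate C lists and 1, 3 and 1 in the L lists, which overlapped at 3. The difference was -2.33 (exact two-sided permutation p = 0.2, adjusted p = 1 by Benjamini-Hochberg). Synapse lists held 3, 4 and 3 peaks in C and 5, 2 and 2 in L. The covered bases were 4971, 2759 and 4605 in homogenate C and 2241, 1263 and 245 in L, which did not overlap. The share of all genes without such overlap in bases was not counted, so this gap has no background. In the synapse C lists of days 1, 6 and 20 the covered bases were 1842, 1269 and 675. In the L lists they were 824, 838 and 382, lower on each day. Median peak widths of the whole synapse lists were also lower in L on each day. They were 381, 278 and 289.5 bp in C and 197, 188 and 229 bp in L. In homogenate they were 445, 413 and 421 bp in C and 426, 426 and 301 bp in L. The part of list-wide width in the covered bases was not tested. Over both fractions the mean difference was -1721 bases (exact two-sided permutation stratified by fraction and day, p = 0.0125, the lowest of 160 assignments), and the adjusted p over all genes was 1.

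Of the 39 peaks named Grin2c, 15 lay outside its span (chr11:115249169-115267297). Of these, 13 lay over Tmem104, the neighbour below, and 2 over Fdxr, the neighbour above. The region over Tmem104 at chr11:115243377-115246618 had peaks in 9 lists, the widest of 3201 bp in homogenate C1, and which transcript these peaks belong to was not tested. Inside the span, homogenate peaks covered 1005, 1521 and 3607 bases in C and 0, 495 and 245 in L. These again did not overlap, and again the share of all genes without overlap in bases was not counted. The synapse C lists covered 376, 689 and 675 bases inside the span and the L lists 824, 150 and 0, so day 1 was higher in L and days 6 and 20 lower. Inside the span the difference over both fractions was -1026 bases (exact two-sided stratified permutation p = 0.025, adjusted p = 1). A region at the 5′ end, chr11:115265128-115267468, had peaks in homogenate C2 and C3, 2 synapse lists and both control lists, with a highest fold of 62.7 in homogenate C3.

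**Figure D4:**
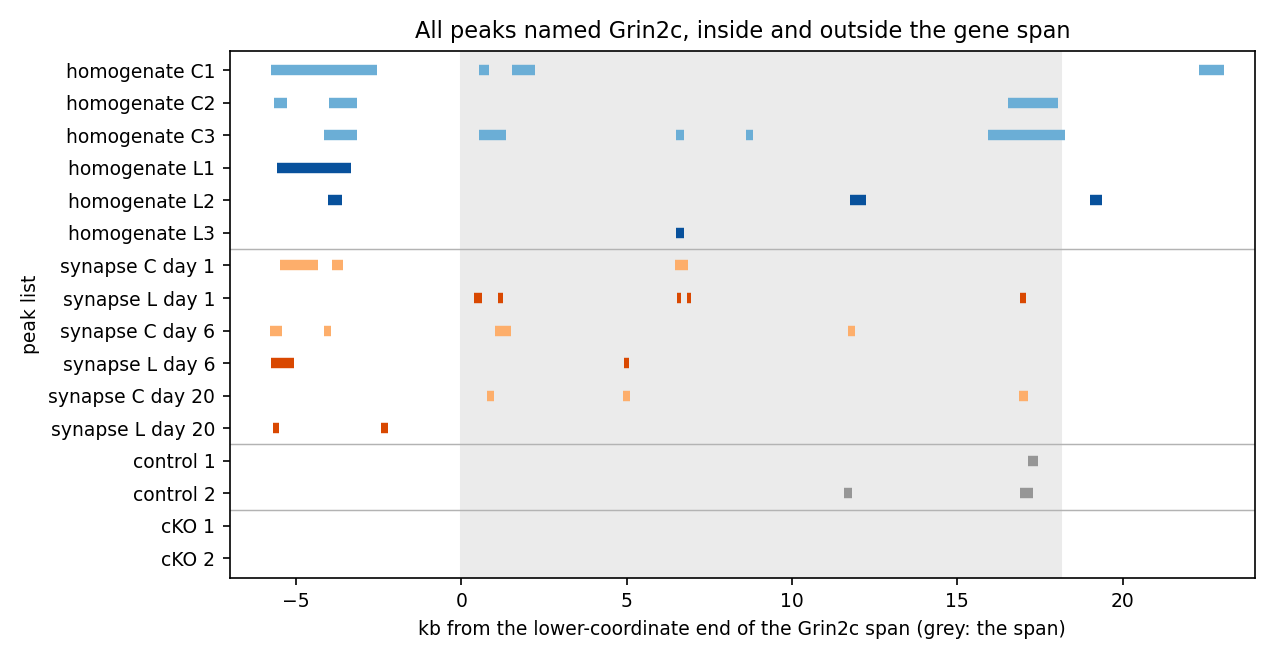
All 39 peaks named Grin2c, as bars on rows for the 16 lists, in kb from the lower-coordinate end of the gene span (grey). Of the peaks, 15 lie outside the span, most of them on the lower side, and the mean number of bars per homogenate list is 4 in C and 1.67 in L.

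In homogenate, counted by name, every L list held fewer peaks of these genes than any C list. The 6 genes together had 13, 13 and 14 peaks in the C lists and 8, 10 and 6 in the L lists. By position under any gene name, an alternative chosen after seeing the data, they had 12, 15 and 17 in C and 9, 14 and 11 in L, and with folds of at least 5 they had 6, 6 and 10 in C and 6 in each L list. The groups overlapped under both. The means were 13.3 ± 0.577 and 8 ± 2 (SD, n = 3 each), and no test was made on a sum over chosen genes. Of the 6, Grin1, Grin2c, Grin2d and Grin3a had a lower mean number in L and Grin2a and Grin2b the same mean, beside 36.8% of all genes lower and 39% higher. None passed the adjusted threshold, as none of all genes did (0% of 12908, also none at an unadjusted p under 0.05). The sum was 22.7% lower in L by position, against 40% by name. The count by position adds the peaks named Grin1os, Grwd1 and Ppp3r2 and drops those outside the Grin2c span. The covered bases of the 6 genes were 12248, 9156 and 11624 in C and 7691, 7343 and 4640 in L.

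In synapse each day had 1 list per group, so these differences have no replicate check. On day 1, L had 14 peaks of the 6 genes and C had 11, with Grin2c and Grin3a higher by 2 and Grin2a lower by 1. Of the 4604 genes with a peak that day, 38.5% had more in L and 34.3% fewer. On day 6 both lists had 15, with Grin1 higher by 1 and Grin2a by 2, and Grin2b lower by 1 and Grin2c by 2, beside 41.4% and 39.8% of genes. The 39.8% includes genes past the end of the L list of that day. On day 20, L had 9 and C had 11, with Grin1 and Grin2c lower by 1 and no gene higher, beside 39.3% and 36.3%. In number of peaks, no gene of the 6 moved one way on all 3 days, while the covered bases of Grin2c were lower in L on each. The median peak width of the whole list was lower in L on each day as well.

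Over both fractions, no member passed the adjusted threshold for C against L in number. The stratified differences ran from -1.33 for Grin2c to 0.167 for Grin2a, all with adjusted p = 1, and 0% of 13115 genes passed (23 at an unadjusted p under 0.05, exact two-sided stratified permutation). Whether L against C differed between the fractions was tested for each gene by exchanging the 3 homogenate and 3 synapse differences. The lowest exact two-sided p this design allows is 0.1, so none could pass. In number of peaks, Grin3a reached it, with -1 in homogenate and 0.667 in synapse, but in covered bases Grin3a had -158 and -135 (exact p = 0.9). In covered bases Grin2c and Grin2d reached 0.1 (the same exact test), both with the lower value in homogenate. No synapse list held a Grin2d peak, so its synapse difference was fixed at 0. For Grin2d the test therefore restates the homogenate difference and cannot compare the fractions.

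**Figure D5:**
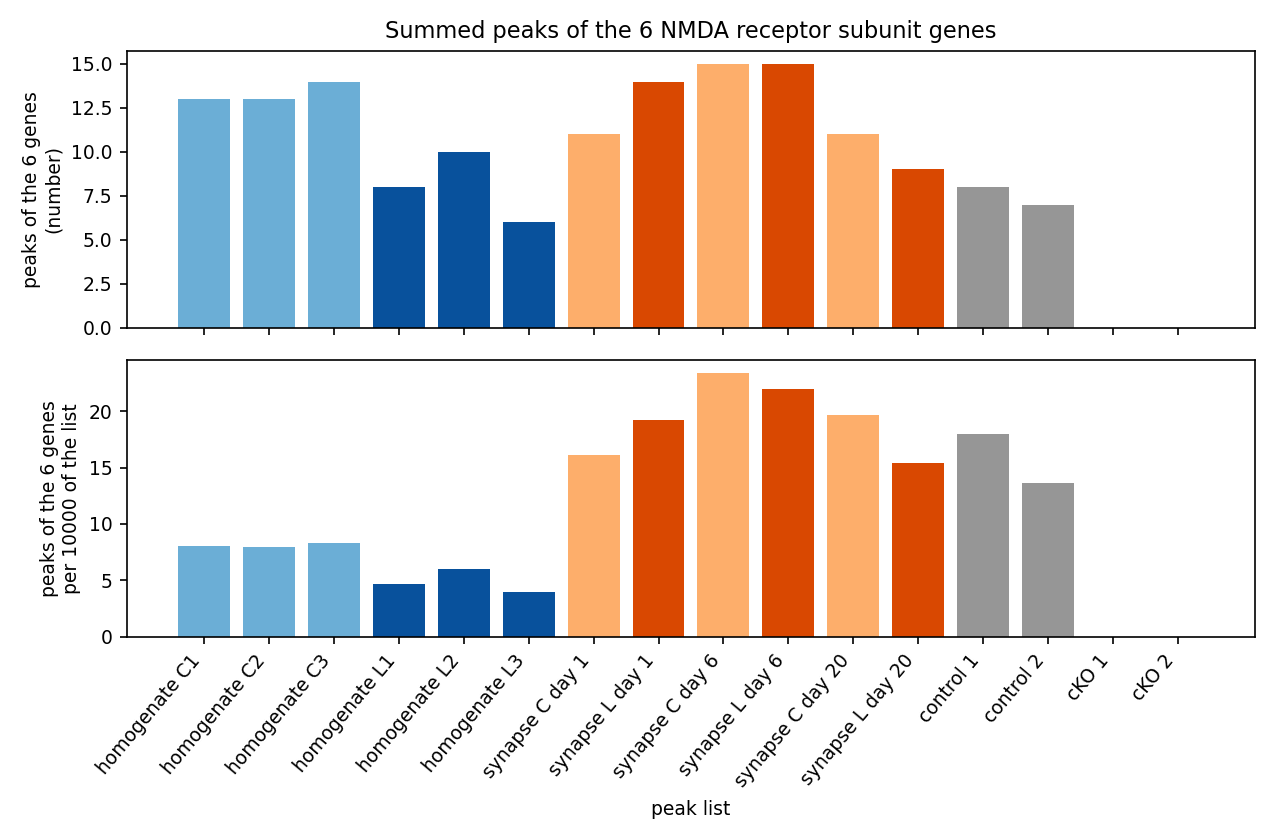
Peaks of the 6 genes together in each of the 16 lists, as a number (top) and per 10000 peaks of the list (bottom). Homogenate L lists hold 6 to 10 and homogenate C lists 13 or 14, and per 10000 peaks all synapse lists, at 15.4 to 23.4, stand above all homogenate lists, at 3.95 to 8.3.

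Between the fractions, the 6 genes took a larger share of the synapse lists, which are shorter than the homogenate lists. They made 8.01, 7.98 and 8.3 of every 10000 peaks in the homogenate C lists and 4.71, 5.97 and 3.95 in the L lists. In synapse they made 16.1, 23.4 and 19.7 in C and 19.2, 22 and 15.4 in L, so every synapse list was higher, though the numbers themselves overlapped (6 to 14 against 9 to 15). The synapse L list of day 6 ends after all 6 genes, which raises its share. Within the range that it reaches, an alternative chosen after seeing the data, homogenate lists had 4.67 to 9.8 and synapse lists 18.3 to 27.7. On the scale per 10000 peaks, 34.3% of all genes had a higher mean in synapse, 4.67% passed as higher (0.107% by number) and 3.48% were higher in every synapse list. Grin2a, Grin2c and Grin3a were among those that passed, the latter pair with adjusted p = 0.0237 and 0.0122 (exact two-sided permutation). By number, Grin2c and Grin3a differed by 0.333 and 0.167 peaks, and in covered bases by -1709 and -45.5, lower in synapse. None of these differences passed. On day 6 alone, where both fractions exist, Grin2a went from a mean of 2.67 in 6 homogenate lists to 6 in 2 synapse lists without passing the adjusted threshold (exact two-sided permutation p = 0.0357, the lowest of 28 assignments, adjusted p = 0.268). Grin2d went from 1.5 to 0 (exact two-sided permutation p = 0.0714, adjusted p = 0.394). In that comparison 0% of 13026 genes passed (1733 at an unadjusted p under 0.05). Every synapse list was higher for 0.944% of genes and lower for 18.3%. Genes past the end of the synapse L list can count only toward the second share.

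In the cKO set, peaks of these genes stood in the control lists alone. The first control list held 1 peak of Grin1, 5 of Grin2a, 1 of Grin2b and 1 of Grin2c, the second held 4 of Grin2a, 1 of Grin2b and 2 of Grin2c, and both cKO lists held 0. Grin2d and Grin3a had no peak in the 4 lists. The exact two-sided permutation p for Grin2a, with means of 4.5 and 0, was 0.333, the smallest that 6 assignments can give (adjusted p = 0.833, Benjamini-Hochberg), and no gene could pass (0% of 4188, none at an unadjusted p under 0.05). Grin2a, Grin2b and Grin2c were found in both controls and lost from both cKO lists, as were 61.4% of the 2302 genes found in both controls, and every cKO list was lower for 39% of 4188 genes. The 15 control peaks were 150 to 444 bp wide with authors' folds of 2.12 to 4.15, while the narrowest peak of the second cKO list was 500 bp. So peaks of the widths seen in the controls were not in that list for any gene. The first cKO list, with widths of 150 to 849 bp and a median of 150, did hold such widths and had 0 peaks of the 6 genes. It held 1887 peaks in all, beside 4446 and 5132 in the control lists. The part of list size and form in these absences was not tested.

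Of 60 genes that bind, transport, modify or signal from NMDA receptors, or supply their agonists, 59 had a peak in some C or L list. In homogenate 24 of the 57 with a peak had a higher mean in L and 18 a lower one, and none passed. Among the largest differences were 1.33 for Rasgrf1, an exchange factor that the receptor activates, and -1.33 for Dao, which degrades D-serine, and for Kif17, the motor of GluN2B vesicles. None of them passed (exact two-sided permutation, adjusted p = 1). Over both fractions the largest were 0.833 for Dlg2 and for Dlg4, which encodes PSD-95, and -1.33 for Nos1, the nitric oxide synthase tied to it, and none passed.

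Between the fractions over all days, 13 of 59 partners had a higher mean in synapse and 42 a lower one, with a median difference of -0.5, as over all genes. None passed with more peaks in synapse, beside 0.107% of all genes, and 1 (1.69%) passed with fewer, beside 15.3%. This was Lin7b, a scaffold gene, with 1, 2 and 1 peaks in homogenate C, 1, 1 and 2 in L and 0 in every synapse list (exact two-sided permutation, adjusted p = 0.0147). Ppp3ca, the calcineurin catalytic subunit, went from 0.667 ± 0.516 to 1.83 ± 1.17 peaks (SD, n = 6 each). Akap5, which anchors calcineurin at the receptor, went from 1.67 ± 1.21 to 2.67 ± 1.03 (exact two-sided permutation, adjusted p = 0.202 and 0.458 for the 2 genes). In mean covered bases Ppp3ca rose from 638 to 1098, but Akap5 fell from 2312 to 1202. Kif17 had 5, 2, 2, 3, 2 and 0 peaks in homogenate and 0 in every synapse list (exact two-sided permutation, adjusted p = 0.0599). Camk2a, the kinase that binds GluN2B, had 4 to 5 peaks per homogenate list and 1 to 6 per synapse list. In the cKO set, 34 of 39 partners (87.2%, beside 79% of all genes) had a lower mean in cKO and 2 a higher one, with none passing. Of the 25 found in both controls, 12 (48%, beside 61.4% of all genes) had none in either cKO list, among them Camk2a, with 5 and 2 control peaks, and Sptbn1, with 6 and 5.

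For the 4 members with peaks in at least 8 lists, the genes with the most similar numbers over the 16 lists were found by the summed absolute difference. Nnat was nearest to Grin1, at 5 peaks, then Dpf2 and G6pc3 at 6. Tub was nearest to Grin2a, at 12, then Myl6 and Prr12 at 13. Limk2 and St6galnac6 were nearest to Grin2c, at 9, then Caln1, 1 of 5 genes at 12. Agtrap, Aldh7a1 and Cggbp1 were 3 of the 10 genes at 6 from Grin3a.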

How the data were processed

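The 16 captured libraries were analysed through the peak list of each; the 16 inputs have no list used here. Per the labels' protocols, total RNA was fragmented, captured with an ac4C antibody and made into libraries. HISAT2 2.0.4, cutadapt 1.9.3, FastQC and the mm10 build are named in the submitters' processing notes; the peak caller is not given in the sources used here. For each deposited peak there is, per the file headers, a position, a fold enrichment over input (a ratio) and a -log10 p-value; these were used only to rank or filter peaks within a list. Depth is unknown, so no interval on depth can be given.

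Gene symbols were updated to RefSeq through unique synonyms: of 13302 names, 12937 were current, 214 were updated and 151 kept. No member's name changed. For every gene, the number of peaks per list was compared by an exact two-sided permutation test of the difference in means, with Benjamini-Hochberg adjustment over all genes of the comparison and a threshold of 0.05. Peaks in more than one comparison share lists. On simulated lists of independent counts, changed genes were given a large mean in homogenate and no peaks in synapse. Of these, 1483 of 1500 were recovered in the comparison of synapse with homogenate over all days, with 3 false calls. This checks the computation and does not measure power or error at the smaller differences reported here, or among lists that deviate together. Alternatives were covered bases, filters on fold, p-value and width, joining, spans, list size and omission of each list. The NMDA receptor genes, the partner and marker lists and the rules for named genes (up to 4 partners per direction by difference, the 3 nearest genes per member) were chosen with earlier results of these data known; some results that the rules take are not reported here. Python 3.11.15, numpy 2.4.6, pandas 2.3.3 and statsmodels 0.14.6 were used.

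Homogenate lists of the same number deviated together (correlations of gene presence 0.314, 0.221 and 0.116 over 12908 genes). Lists C2 and L2 shared 91 peaks at identical positions. Numbers were taken to pair the lists, but only in the alternatives with a replicate block or averaged lists. The main tests within homogenate and between fractions exchanged single lists, so their p-values treat linked lists as independent. The pairing rests on the data, as the labels give only numbers, and the peak names inside the L1 list carry another number. The control and cKO lists, at 0.0384, were not taken as paired.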

Additional observations from a re-analysis of the deposited data

How the results depend on the processing

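Changes in the summed peaks of the 6 genes are given as a percent of the first group's mean, and single genes as differences in mean peaks or bases. Position under any gene name and equal numbers of highest-fold peaks were alternatives chosen after seeing the data. In homogenate, L against C was -40% and became -18.2% with folds of at least 5 and -22.7% by position. Over both fractions it was -19.5% and became 8.11% with folds of at least 5. In synapse by day it was 2.7% and became -22.2% in covered bases, 46.7% with folds of at least 5, -3.12% with joined peaks and -4.49% per 10000 peaks. Synapse against homogenate on day 6 was 40.6% and became -33% in covered bases, 250% per 10000 peaks, 3.85% by position and 160% with the 6413 peaks of highest fold per list. Over all days it was 17.2% and became -42% in covered bases, -7.5% with folds of at least 5, 197% per 10000 peaks, -12.8% by position and 114% with the 5586 peaks of highest fold. The cKO sum was -100% under each alternative that gave a value. No control peak of these genes reached a fold of 5, a width of 500 bp or the 422 highest folds of its list, so those alternatives gave none. The cause of these shifts was not tested.

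The calls of Grin2a and Grin2d over all days held in all 12 omissions of 1 list (exact permutation, adjusted p 0.022 to 0.0283 and 0.0112 to 0.0223). Both were lost with C and L lists of 1 number averaged, where 3 against 3 cannot pass (exact permutation, adjusted p = 0.296), and with equal list sizes (0.0716 and 0.11), and Grin2a also with folds of at least 5, a -log10 p of at least 10, joined peaks or covered bases (adjusted p 0.0547 to 1). Per 10000 peaks, Grin2c and Grin3a passed as well (differences of 3.15 and 1.57, exact permutation, adjusted p = 0.0237 and 0.0122). With the replicate number as a block, the paired homogenate sum stayed at -40%, the smallest exact p was 0.25, for Grin3a, the lowest that 3 pairs allow, and no call changed. The cKO lists share numbers only; their block gave an exact p = 0.5 for Grin2a, and no call changed.

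Some uncalled differences turned sign under the alternatives run gene by gene. L against C over both fractions was -235 bases for Grin2a and 26.2 for Grin2b, and 0.167 peaks for Grin1, Grin2b and Grin3a with folds of at least 5, and 0.0965 per 10000 peaks for Grin3a. Omitting 1 list moved Grin2a from -0.25 (without either synapse list of day 6) to 0.5. Synapse against homogenate on day 6 was -1627 bases for Grin2c and -0.333 peaks by position for Grin1, 0.597 per 10000 for Grin3a, and omissions moved Grin2c from -0.833 (without the C list of synapse) to 1.17, with homogenate L1 or L3 also turning it. Over all days it was -158 bases for Grin1, -20.3 for Grin2a, -1.5 for Grin2b, -1709 for Grin2c and -45.5 for Grin3a. It was -0.5 peaks for Grin1 with folds of at least 5, -1.83 by position, and -0.167 for Grin2c with joined peaks. Omissions gave -0.233 to 0.4 for Grin1 (negative without either synapse list of day 6), -0.133 to 0.3 for Grin2b (without the synapse C list of day 6), -0.0333 to 0.767 for Grin2c (without homogenate L1 or L3 or the synapse L list of day 1) and -0.3 to 0.3 for Grin3a (without the synapse L list of day 1).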
